A study of Mus with 3 samples.

Results

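Rag1 Dntt cells are lymphoid cells that carry transcripts of the antigen receptor recombination machinery and, in these data, those of thymocytes. A cell was taken as one when it held at least 2 UMIs (unique molecules) of Rag1, Rag2 and Dntt together, fewer than 3 UMIs of the proliferation genes Mki67, Top2a, Cdk1 and Birc5 together, and 0 UMIs of the B cell gene Cd79a. Of 14441 kept cells, 641 met these limits, and 609 of them lay in 1 of the 3 libraries.

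The libraries were made from whole lung of female mice aged 6-12 weeks with droplet single-cell RNA-seq that tags transcripts at the 3′ end. Wild-type mice were challenged with PBS (WT PBS) or with ovalbumin, a model allergen (WT OVA), and mice lacking DJ-1, the redox protein encoded by Park7, were challenged with ovalbumin (DJ-1 KO OVA). A single library stood for each group, with the cells of 3 mice pooled in it. Differences between groups therefore carry no replicate check, no test was made, and it cannot be told whether 1 animal or all 3 gave the cells described here. The labels do not say how the knockout allele was made, and no library of DJ-1 KO mice given PBS was analysed here, so genotype, challenge response and the single pool cannot be told apart. For WT PBS the sample title speaks of ovalbumin, whereas the treatment label and the library's name give PBS, which was followed.

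In the thymus, precursors rearrange their T cell receptor genes with the RAG1 and RAG2 recombinase, and terminal deoxynucleotidyl transferase (Dntt) adds untemplated bases at the joints. They pass from a stage without CD4 and CD8 (double negative), through a burst of division, to small resting cells that carry both coreceptors (double positive), which rearrange the receptor alpha chain and await selection. Cells that pass selection keep 1 coreceptor, switch the recombinase off, gain CCR7, IL7R and S1PR1, and leave for the blood. Mature T cells of the lung therefore ordinarily lack Rag1 and Dntt.

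The libraries held 26548669 (WT PBS), 24438516 (WT OVA) and 17339386 UMIs (DJ-1 KO OVA), with medians of 4128, 2108.5 and 1653 UMIs per kept cell. WT PBS and DJ-1 KO OVA shared 372 cell barcodes, far more than the 6 and 5 of the other pairs, and the cell with fewer UMIs of each pair was removed where it had passed the filters (306 and 65 cells). Only 2 Rag1 Dntt cells carried a shared barcode, and their number was 641 with and without this removal. Park7 stood at 21.4 CPM (the gene's UMIs scaled to the summed UMIs of the cells, 12.5 to 34.2) in the Rag1 Dntt cells of DJ-1 KO OVA, at 98.4 CPM (47.2 to 181) in those of WT PBS and at 1 UMI in those of WT OVA. Other T cells of the libraries held 14.8, 178 and 132 CPM in DJ-1 KO OVA, WT PBS and WT OVA. Park7 was thus low in both kinds of cells of the knockout library, although tags from 3′ sequence that the deletion spares check nothing. Brackets hold 95% intervals throughout, Clopper-Pearson for shares of cells, exact Poisson for CPM and conditional binomial (exact) for ratios, and all cover counting error only.

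Rag1 Dntt cells were a main lymphoid population of the DJ-1 KO OVA library and rare in the other libraries. They numbered 609 of 4441 kept cells in DJ-1 KO OVA, or 13.7% (12.7 to 14.8). In WT PBS they numbered 25 of 3908, or 0.640% (0.414 to 0.943), and in WT OVA 7 of 6092, or 0.115% (0.0462 to 0.237). The share in DJ-1 KO OVA was 119-fold that in WT OVA (57.6 to 298) and 21.4-fold that in WT PBS (14.4 to 33.4). The WT OVA library held fewer of them than WT PBS, at 0.180 of its share (0.0656 to 0.427), so among wild-type libraries the challenged one was the lower. Counted against other T cells (at least 2 UMIs of the CD3 chains, no recombinase UMI, no Cd79a, fewer than 3 proliferation UMIs), they made up 46.8% (44.0 to 49.5) of both kinds together in DJ-1 KO OVA, 2.56% (1.66 to 3.75) in WT PBS and 0.610% (0.246 to 1.25) in WT OVA. Cells that met the same limits but held 3 or more proliferation UMIs, called cycling Rag1 Dntt cells, numbered 125, 4 and 3 in DJ-1 KO OVA, WT PBS and WT OVA. They made up 17.0% (14.4 to 19.9) of resting and cycling cells together in DJ-1 KO OVA, against 4 of 29 in WT PBS.

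Some of the chosen cells, in each library, looked like another kind. Siglech, a surface lectin of plasmacytoid dendritic cells, which can also carry Dntt, was found in 3 of the 7 cells of WT OVA, in 2 of the 25 of WT PBS and in 4 of the 609 of DJ-1 KO OVA. The 5 wild-type ones held 13 to 30 UMIs of Irf8, a dendritic cell factor, in each cell and 0 UMIs of Rag1, Arpp21 and Cd3d. The 4 of DJ-1 KO OVA held 5 to 21 UMIs of Irf8 in each cell and 0 of Cd3d. Rag1 was found in 1 of these 4 and Arpp21 in 1. Without all Siglech cells 605, 23 and 4 remained in DJ-1 KO OVA, WT PBS and WT OVA, and the ratios of shares were 207-fold (80.6 to 764) and 23.1-fold (15.3 to 36.8) over WT OVA and WT PBS. This check was added after the values were seen.

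The values that chose the cells are given as a description only. In DJ-1 KO OVA, Rag1 was found in 532 of the 609 cells, Dntt in 480 and Rag2 in 100, and 403 held both Rag1 and Dntt, 129 Rag1 without Dntt and 77 Dntt without Rag1. The sum of the genes had a median of 4 UMIs and a maximum of 14, and 144 cells sat at the limit of 2. None of the proliferation genes was detected in 562 cells, while 36 held 1 and 11 held 2 of their UMIs. Cd79a alone kept 9 cells of DJ-1 KO OVA, 4 of WT PBS and 1 of WT OVA out, counting resting and cycling cells. Rag1 (chr2:101638252-101649532) and Rag2 (chr2:101624712-101632528) are neighbours on chromosome 2, and Dntt lies at chr19:41029275-41059525, in the GRCm38.p6 assembly, the same genome as mm10.

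Cells just outside the limit carried the same markers in fewer cells and at lower levels of summed UMIs. Another 155 cells of DJ-1 KO OVA held exactly 1 UMI of the recombination genes. Just outside the limit, at 1 UMI, Arpp21, a cyclic AMP-regulated phosphoprotein of double positive thymocytes, was found in 38.7% of cells, Ccr9, the receptor for the thymic chemokine CCL25, in 47.7% and Cd8b1, the CD8 beta chain, in 52.9%. Just inside, at 2 UMIs, the shares were 45.8%, 65.3% and 60.4%. Cells with 0 UMIs held them in 1.02%, 4.38% and 8.59% of cases, so by share of cells those at 1 UMI stood closer to those at 2 than to those at 0. By level they stood closer to those at 0, with Arpp21 at 3.32, 242 and 662 CPM, Ccr9 at 20.05, 415 and 1376 CPM and Cd8b1 at 35.6, 322 and 954 CPM in cells with 0, 1 and 2 UMIs. These levels are of summed UMIs, in which a few deep cells can weigh heavily. The alveolar gene Sftpc stood at 17006, 8084 and 656 CPM in the same cells, although it was found in 34.2% of cells at 1 UMI and 34.0% at 2. In cells with 5 UMIs it stood at 22327 CPM. How far such RNA lowers the marker levels at 1 UMI was not tested. The median depth was close, at 939 UMIs in cells at 1 and 865 UMIs in cells at 2, against 1883 at 0.

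**Figure D1:**
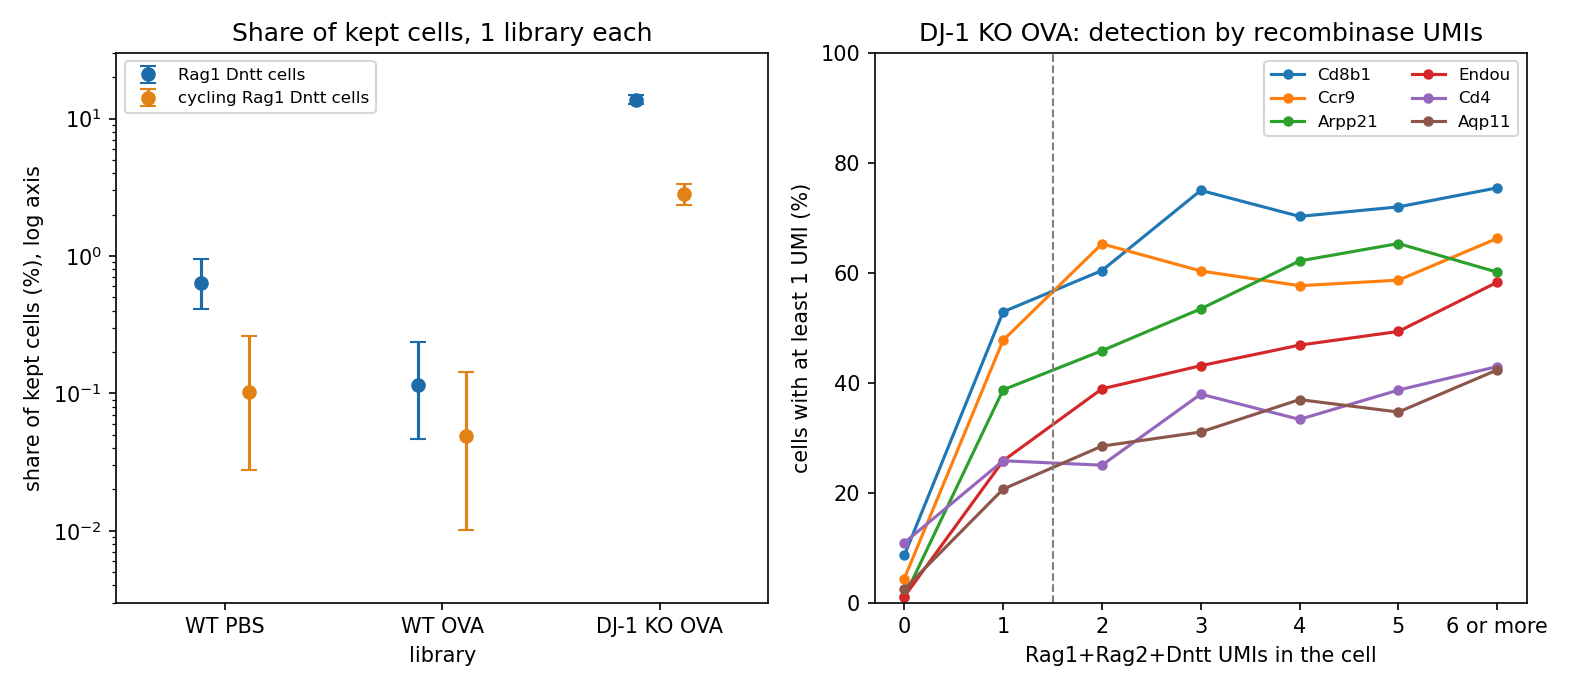
The left panel plots the share of kept cells (percent, log axis) that are resting (blue) or cycling (orange) Rag1 Dntt cells in each library, with bars for 95% Clopper-Pearson intervals, and the resting share of 13.7% in DJ-1 KO OVA stands above the 0.640% and 0.115% of the wild-type libraries. The right panel plots, for all DJ-1 KO OVA cells, the percent with at least 1 UMI of 6 stage genes against the number of Rag1, Rag2 and Dntt UMIs in the cell, with a dashed line at the limit, and Arpp21, for one, goes from 1.02% at 0 UMIs to 38.7% at 1 and 45.8% at 2.

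Rag1 Dntt cells mostly held few UMIs. In DJ-1 KO OVA their median was 942 UMIs per cell, from 501 to 15417, and 356 of 609 held fewer than 1000. Other T cells of that library had a median of 1970, cycling Rag1 Dntt cells 3418 and B cells (at least 2 Cd79a UMIs and no CD3 chain) 1124.5. The median mitochondrial share was 2.49%, against 2.98% in other T cells. The 25 cells of WT PBS had a median of 2850, with 4903 in other T cells of that library, and the 7 of WT OVA one of 3545, with 2257 in other T cells. Rag1 Dntt cells thus held fewer UMIs than other T cells in DJ-1 KO OVA and WT PBS. They held more in WT OVA, where the 4 without Siglech had a median of 1002.5. Cell size itself was not measured, and smaller or larger cells below are those with fewer or more UMIs. A group of 33 cells in DJ-1 KO OVA stood apart with more than 3000 UMIs, and 12 of them, against 7 of the other 576, held 10 or more UMIs of a B cell, myeloid or epithelial marker list. Arpp21 stood at 321 CPM (245 to 414) in those 33 and at 883 CPM in the rest, and Cd44 at 343 (264 to 438) and 72.4 CPM (52.6 to 97.1). Whether the 33 hold RNA of a second cell was not tested.

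Genes outside the selection matched the label of thymocyte-like cells. A CD3 chain, part of the T cell receptor complex, was detected in 408 of 609 cells (67.0%, 63.1 to 70.7) of DJ-1 KO OVA. At least 1 of Arpp21, Endou and Aqp11 was detected in 499 (81.9%, 78.6 to 84.9), against 2.89% of other T cells and 1.54% of B cells, and no cell lacked all of 12 T lineage genes. Pro-B and pre-B cells also use Rag1 and Dntt. The pre-B receptor gene Igll1 was at 0 UMIs, Vpreb1 at 7 UMIs in 7 cells, and Pax5 at 2 UMIs in 1 cell, and the B lineage list, without the genes shared with T cells, summed to 59.1 CPM (43.4 to 78.6) against 6046 CPM (5807 to 6292) in B cells. Both groups had been chosen on Cd79a, at 0 UMIs and at 2 or more, so this contrast is set in part by that choice. The B cells were not chosen as precursors. In other T cells the list summed to 24.5 CPM (18.4 to 32.1), less than in Rag1 Dntt cells. Ebf1, a factor that B cell precursors need, was found in 0.657% of Rag1 Dntt cells.

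Coreceptor RNA was dominated by CD8. In DJ-1 KO OVA, Cd8b1 was found in 429 cells (70.4%) at 1151 CPM (1078 to 1228), and Cd8a, the other chain of the CD8 dimer, in 404 (66.3%) at 944 CPM (877 to 1014). Cd4 was found in 216 cells (35.5%) at 396 CPM (354 to 443). Other T cells held 127, 108 and 148 CPM of Cd8b1, Cd8a and Cd4, so the ratios were 9.04-fold (7.89 to 10.4), 8.71-fold (7.51 to 10.1) and 2.68-fold (2.28 to 3.14). All 3 coreceptor genes were thus past 2-fold, where 14.5% of the 9500 genes with at least 20 UMIs stood at least 2-fold higher and 15.5% at least 2-fold lower.

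Cells with both coreceptors were common in this population and rare among other T cells and B cells of the library. As counted, 196 of 609 cells (32.2%, 28.5 to 36.1) held UMIs of Cd4 and of a CD8 chain, 337 (55.3%, 51.3 to 59.3) CD8 only, 20 (3.28%, 2.02 to 5.03) Cd4 only and 56 (9.20%, 7.02 to 11.8) neither. Both were found in 1.88% (1.003 to 3.19) of other T cells and 0.769% (0.0933 to 2.75) of B cells. The B cells, at a median of 1124.5 UMIs against 942, serve as a measure of free RNA. They had been chosen without a CD3 chain, which can push their share below that of free RNA. The share depended on depth, as it was 21.8% (15.1 to 29.8) in cells of 500 to under 750 UMIs, 30.5% (24.5 to 37.0) from 750, 42.7% (34.6 to 51.0) from 1000 and 34.0% (24.9 to 44.0) in those of 1500 or more. A cell with CD8 UMIs only is therefore not read as a CD8 single positive cell.

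Reduced to the same number of UMIs, the expected double positive share was close in the 2 libraries that could be set side by side. Reduced to 1000 UMIs per cell, with the 356 smaller cells left out, 29.4% of the DJ-1 KO OVA cells would be expected to hold both coreceptors. The 25 WT PBS cells gave 30.5%, although as counted 17 of them (68.0%, 46.5 to 85.1) held both. At 500 UMIs the shares were 14.9% and 13.8%. The reduced shares thus did not show the difference as counted, but they carry no interval and rest on 25 cells in WT PBS. Among deeper cells as counted a difference remained. Those of DJ-1 KO OVA with 1500 or more UMIs (median 2452) held both in 34.0% (24.9 to 44.0), against the 68.0% of WT PBS (median 2850). What sets these readings apart was not tested. Cycling cells of DJ-1 KO OVA held both in 32.8% (24.7 to 41.8) as counted, beside 32.2% of the resting cells, but in 13.2% at 1000 UMIs. Cd4 stood 3.72-fold (2.85 to 4.92) higher in resting than in cycling cells, from 106 CPM (82.5 to 135), while Cd8a was 1.41-fold (1.25 to 1.59) and Cd8b1 1.69-fold (1.51 to 1.90) higher. Of the 7 WT OVA cells, 2 held both coreceptors, 3 CD8 only, 1 Cd4 only and 1 neither.

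**Figure D2:**
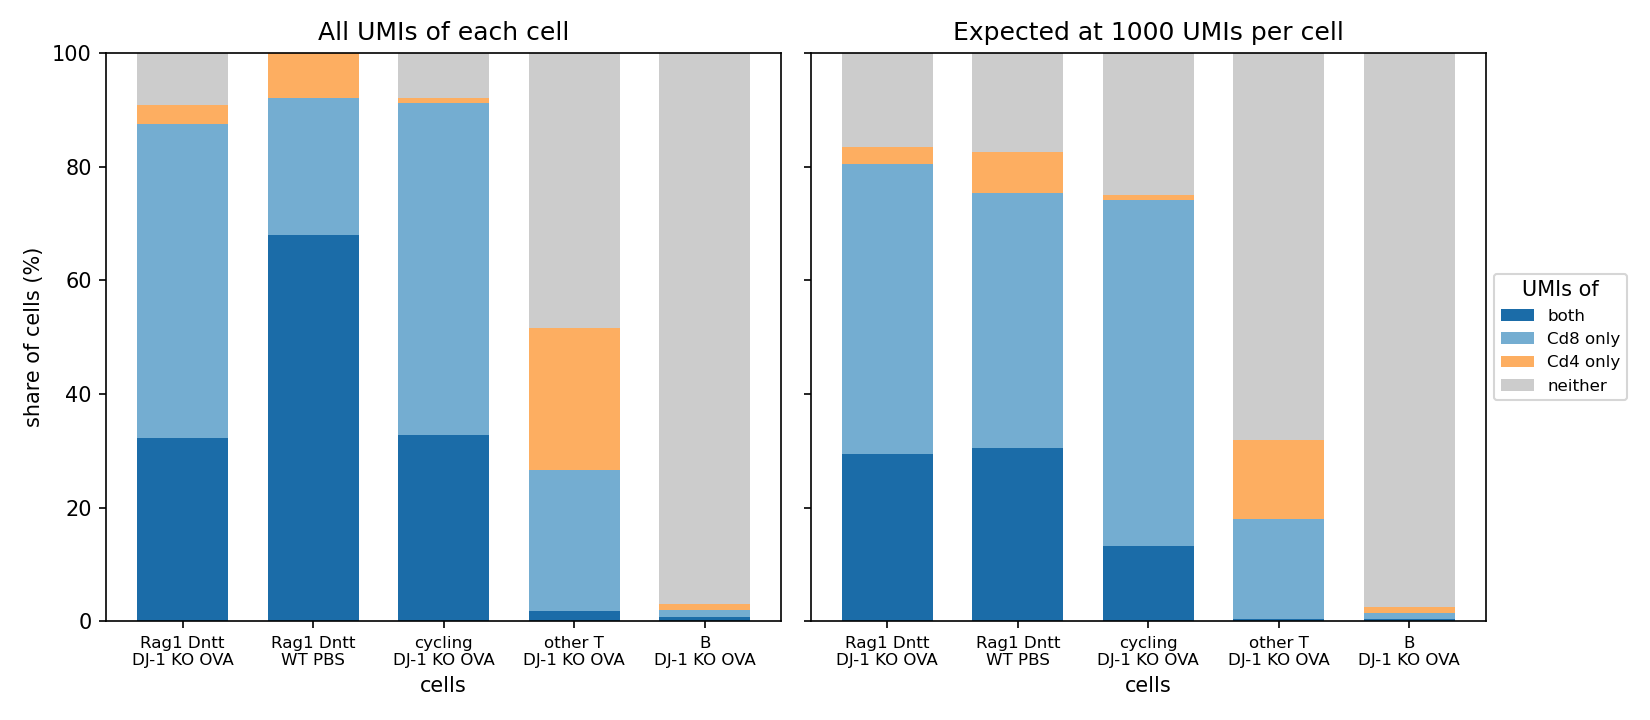
Stacked bars give the percent of cells with UMIs of both coreceptors, of CD8 chains only, of Cd4 only or of neither, for resting Rag1 Dntt cells of DJ-1 KO OVA and WT PBS and for cycling Rag1 Dntt, other T and B cells of DJ-1 KO OVA. The left panel uses all UMIs and the right panel the values expected at 1000 UMIs per cell, where the share with both is 29.4% and 30.5% in the resting cells of both libraries and 13.2% in cycling cells.

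Genes of double positive thymocytes stood higher than in other T cells nearly throughout. All 22 genes of that list, which includes the coreceptors and markers above, had at least 20 UMIs, and 21 were past 2-fold higher and 0 lower. Their median log2 ratio was 3.06, beside 0.14 over all 9500 genes. Slamf6, a receptor of developing T cells, was the exception, at 133 CPM against 87.0 CPM (1.53-fold, 1.196 to 1.95). The label and marker genes of the population were chosen with these cells in view, so the count is a description.

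Arpp21 (chr9:112065091-112236288) was found in 344 cells (56.5%) of DJ-1 KO OVA at 751 CPM (692 to 814). The level in WT PBS was 679 CPM (528 to 859), and WT OVA held 2 UMIs in 1 cell. Other T cells of DJ-1 KO OVA held 8.33 CPM (4.94 to 13.2), a ratio of 90.1-fold (56.5 to 153). The levels of the Rag1 Dntt cells of DJ-1 KO OVA and WT PBS overlapped within counting error, and both stood far above the T cells beside them.

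Ccr9 (chr9:123767211-123783457) was found in 380 cells (62.4%) of DJ-1 KO OVA at 1047 CPM (977 to 1120), at 1230.2 CPM (1024 to 1466) in WT PBS and in all 7 cells of WT OVA (36 UMIs). It was 22.4-fold (18.2 to 27.8) above other T cells of DJ-1 KO OVA and 4.71-fold (3.93 to 5.67) above cycling cells. Plasmacytoid dendritic cells also carry Ccr9, and the Siglech cells held 30 of the 36 UMIs of WT OVA and 44 of the 125 of WT PBS. Without them 6 UMIs in 4 cells were left in WT OVA, and 81 UMIs in 19 cells in WT PBS, at 987 CPM (784 to 1226).

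Bcl2l1, the survival gene of double positive cells, stood at 357 CPM (317 to 401) against 57.4 CPM (47.7 to 68.4) in other T cells (6.22-fold, 5.02 to 7.75), while Bcl2, which mature T cells use in its place, stood at 78.0 CPM against 194 CPM (176 to 213), 2.49-fold (1.90 to 3.30) lower. The exchange of these survival genes ran the same way in WT PBS, where Bcl2l1 was 7.10-fold (3.65 to 12.7) above other T cells and Bcl2 stood at 108 against 369 CPM.

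Endou, an endoribonuclease gene, stood at 577 CPM (526 to 633) against 4.63 CPM (2.22 to 8.51) in other T cells, 125-fold (67.2 to 262) higher. Aqp11, a water channel, was 60.4-fold (34.8 to 115) higher, and Rmnd5a, part of a ubiquitin ligase, 14.8-fold (12.2 to 17.9). Ly6d, a surface protein of lymphoid precursors, was 95.7-fold (56.5 to 176) higher, and Cd24a, the heat stable antigen of immature thymocytes, 8.23-fold (7.01 to 9.70). B cells also carried the last pair, at 1064 CPM of Ly6d and 597 CPM of Cd24a, so neither sets these cells apart from B cells.

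**Figure D3:**
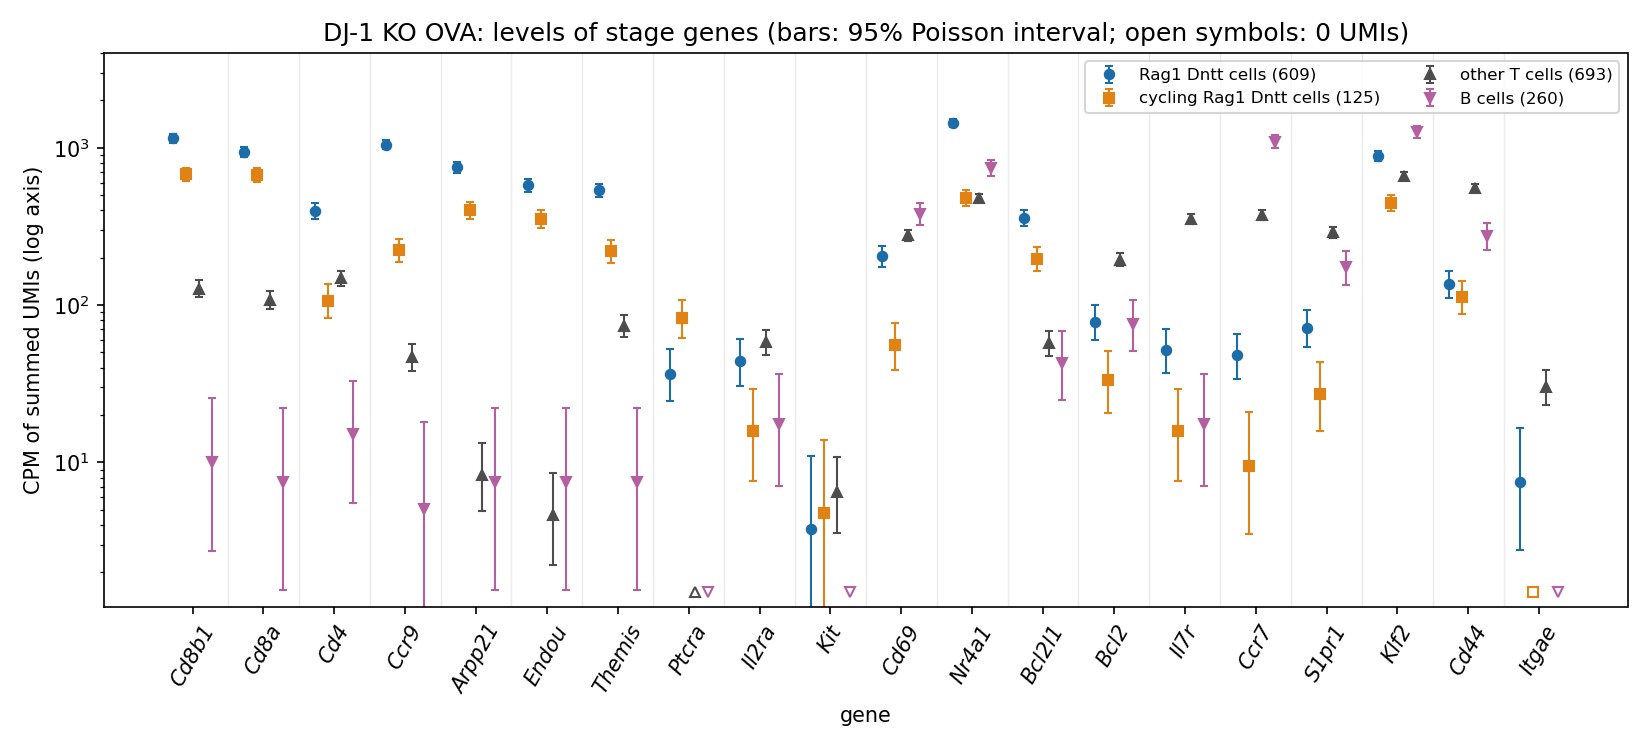
CPM of summed UMIs (log axis) of 20 stage genes in resting Rag1 Dntt cells (blue circles), cycling Rag1 Dntt cells (orange squares), other T cells (grey triangles) and B cells (purple triangles) of DJ-1 KO OVA, with 95% Poisson bars and open symbols for 0 UMIs. The coreceptors, Ccr9, Arpp21, Endou and Themis stand highest in resting Rag1 Dntt cells, whereas Il7r, Ccr7, S1pr1 and Cd44 stand below other T cells.

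The partners of the recombinase were uneven. Of 14 genes of recombination and end joining outside the selection, 12 had at least 20 UMIs, 4 were past 2-fold higher and 1 lower, with a median log2 ratio of 0.60. Xrcc6, the Ku70 subunit that binds broken ends, stood at 325 CPM (286 to 367) against 14.8 CPM (10.1 to 20.9), 21.9-fold (15.1 to 32.7) higher, and Lig4, the ligase that seals them, at 132 CPM (108 to 160) against 6.02 CPM (3.20 to 10.3), 21.9-fold (12.3 to 42.6) higher. Dclre1c, the Artemis nuclease that opens hairpin ends, was 4.16-fold (2.17 to 8.16) and Hmgb1, a DNA-bending partner of the recombinase, 3.02-fold (2.77 to 3.30) higher. Prkdc, the kinase of the same pathway, stood at 27.7 and 22.7 CPM, so the difference did not run through all of its genes.

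Transcription factors separated the cells from mature T cells in both directions. Of 19 T lineage factors, 9 were past 2-fold higher and 4 lower, with a median of 0.82. Satb1, a chromatin organiser of thymocytes, was found in 602 of 609 cells at 5270.4 CPM (5112 to 5432), 5.57-fold (5.28 to 5.88) above other T cells. Myb, needed by double positive cells, was 17.3-fold (14.7 to 20.5), Tcf7, which encodes TCF-1, 5.71-fold (5.28 to 6.18) and Id3, which answers receptor signals, 5.71-fold (4.57 to 7.18) higher. The lower ones were factors of lineage choice and effector fate. Zbtb7b, the ThPOK factor of the CD4 lineage, had 3 UMIs at 3.77 CPM (0.778 to 11.03) against 37.5 CPM (29.8 to 46.6). Runx3, of the CD8 lineage, stood at 79.3 CPM against 170 (2.15-fold lower, 1.64 to 2.85), Gata3 at 180 against 388 (2.16-fold, 1.80 to 2.59) and Id2 at 243 against 612.5 (2.52-fold, 2.17 to 2.95).

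Genes of receptor signalling stood close to mature T cells, with exceptions. Of 13 tested genes of the receptor complex and its first signals, 4 were past 2-fold higher and 1 lower, and the median was 0.30. Cd3d, Cd3e and Cd3g, the CD3 chains, were at 1.19-fold (1.04 to 1.36), 1.03-fold (0.895 to 1.17) and 0.866-fold (0.754 to 0.992) of other T cells. The other T cells had been chosen by these chains, so the ratios are set in part by that choice. Lck, the coreceptor-bound kinase, was 3.01-fold (2.76 to 3.29), Lat, the adaptor it acts through, 2.95-fold (2.70 to 3.23) and Themis, a signal regulator of selection, 7.25-fold (6.03 to 8.75) higher. Cd2, an adhesion receptor, was the lower one, at 47.8 against 199 CPM. The constant genes of the receptor chains were not analysed here.

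Pre-TCR and double negative genes were sparse over the population as a whole. Ptcra, the surrogate alpha chain, had 29 UMIs in 18 cells (36.5 CPM, 24.4 to 52.4) and 0 in other T cells, which with 3 UMIs as the floor puts it at least 26.3-fold higher, and cycling cells held more, at 82.6 CPM (61.7 to 108). Il2ra, the CD25 chain of mid-stage double negative cells and of regulatory T cells, had 35 UMIs in 14 cells, and Kit, the receptor of early progenitors, 3 UMIs in 3. Of 18 early genes 13 had at least 20 UMIs, of which 2, Hes1 and Notch3, were past 2-fold higher and 5 lower, with a median of -0.39.

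Il2ra and Hes1 lay mostly in a few cells without coreceptor RNA, which held 28 of 35 Il2ra and 61 of 86 Hes1 UMIs. Of the other early genes, 6 of 29 Ptcra, 17 of 38 Notch3 and 63 of 150 Notch1 UMIs lay in cells without a coreceptor. Of the 14 Il2ra cells, 8 held no Cd4 or CD8 UMI. The 56 cells without a coreceptor UMI were split at 1500 UMIs, a limit set after the values were seen. The 37 below it, with a median of 799 UMIs, held no UMI of Il2ra, Hes1, Notch3 or Ptcra (an upper bound of 126 CPM for each at their 29180 UMIs in all), and stood at 925 CPM (610.0 to 1346) of Endou. The 19 above it, with a median of 3416, were different.

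In those 19 cells Il2ra stood at 340.3 CPM (226 to 492, 8 cells), against 19.4 CPM (6.29 to 45.2) in the 84 cells of 1500 or more UMIs with a coreceptor. Hes1, a target of Notch signals, stood at 741 CPM (567 to 952, 13 cells) against 50.4 (26.8 to 86.2), Notch1, the receptor that drives T commitment, at 729 CPM (556 to 939, 16 cells) against 136 (94.5 to 189), and Notch3 at 207 CPM (120.3 to 331, 8 cells) against 23.3 (8.54 to 50.6). Endou was lower, at 109 CPM against 388. At least 1 of Il2ra, Hes1 and Notch3 was found in 15 of the 19 and in 16 of the 84, and a CD3 chain in 16 of the 19. Of all 609 cells, 54 held a UMI of these 3 genes. Siglech was found in 2 of the 19, and without those the count was 15 of 17, with Il2ra at 369 CPM and Hes1 at 805 CPM. Among the 19 were 11 of the 33 cells above 3000 UMIs. Without the 33, which was tried after the values were seen, 8 cells without a coreceptor UMI (median 2431) and 62 with one (median 2179.5) were left at 1500 or more UMIs. Il2ra then stood at 519 CPM (249 to 954, 3 cells) against 14.9 (1.80 to 53.8), Hes1 at 1141 CPM (715 to 1727, 6 cells) against 44.7 (16.4 to 97.3) and Notch3 at 570 CPM (285 to 1020.5, 5 cells) against 29.8 (8.12 to 76.3). At least 1 of the 3 genes was found in 7 of the 8 and in 9 of the 62. Lists of other cell types reached 10 UMIs in 4 of the 19 and 11 of the 84, and their part was not tested.

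**Figure D4:**
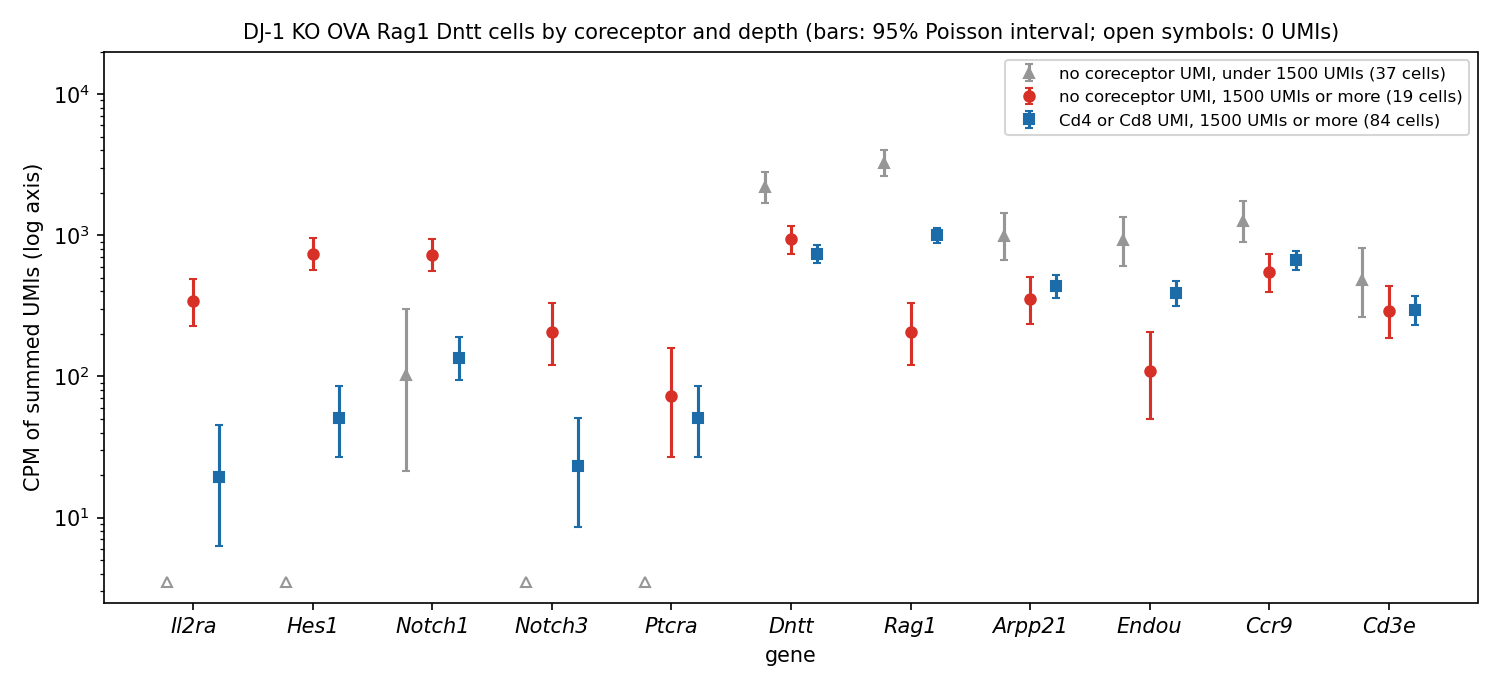
CPM of summed UMIs (log axis) of 11 genes in Rag1 Dntt cells of DJ-1 KO OVA without a coreceptor UMI, under 1500 UMIs (grey triangles, 37 cells) and at 1500 or more (red circles, 19 cells), and in cells of 1500 or more UMIs with a coreceptor (blue squares, 84 cells), with 95% Poisson bars and open symbols for 0 UMIs. Il2ra, Hes1, Notch1 and Notch3 stand highest in the 19 larger cells without a coreceptor.

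Signs of positive selection were mixed. Of 14 tested genes 2 were past 2-fold above other T cells and 6 lower, with a median of -0.65. Nr4a1, an immediate target of receptor signals, stood at 1436 CPM (1354 to 1521), 3.005-fold (2.76 to 3.27) above both other T cells and, at 2.99-fold (2.63 to 3.41), cycling cells. Against other T cells of 500 to 1500 UMIs alone its log2 ratio was 0.97, which is below 2-fold. Cd69, a surface marker of selected and of activated cells, was found in 103 cells (16.9%) at 204 CPM (174 to 238), 1.36-fold (1.14 to 1.63) below other T cells of the library but 3.66-fold (2.53 to 5.44) above cycling cells, and against other T cells of WT OVA its log2 ratio was 0.20. Cd5, which tracks receptor signal strength, stood at 67.9 against 111 CPM, and Itm2a, a gene of selected thymocytes, at 49.1 against 126 CPM. Immediate early genes, which tissue dissociation also induces, had 5 of 15 members past 2-fold higher and 2 lower, with Hspa1a at 320 against 88.4 CPM and Jun at 1344 against 477 CPM, and the part of dissociation in the Nr4a1 level was not tested.

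Genes of mature and departing T cells stood low. Of 17 tested, 13 were past 2-fold lower and 1 higher, and the median was -1.92. Ccr7, the receptor that leads cells to the medulla and to lymph nodes, stood at 47.8 CPM (33.8 to 65.6) against 374 CPM (349 to 401), 7.82-fold (5.65 to 11.1) lower. Il7r, which naive T cells need, was 6.84-fold (4.99 to 9.61) lower, and S1pr1, the exit receptor, 4.04-fold (3.08 to 5.40) lower. H2-K1, a class I molecule that matures late, stood at 1118.5 against 3756 CPM. Klf2, which switches S1pr1 on, stood at 887 CPM (823 to 955) against 665 CPM (631 to 701), so not every gene of the exit programme was low. Cd27, a costimulatory receptor, was the higher one at 4.08-fold (3.41 to 4.88).

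A small set of cells carried exit receptors. Ccr7 or S1pr1 was found in 39 of 609 cells (6.40%, 4.59 to 8.65), against 58.4% of other T cells and 78.5% of B cells. Their median was 2277 UMIs, against 924.5 in the other 570, 18 of them held both coreceptors and 34 at least 1 of Arpp21, Endou and Aqp11. In cells with both coreceptors S1pr1 stood at 149 CPM (106 to 203) and Il7r at 104 CPM (69.2 to 151), against 35.5 (19.4 to 59.6) and 27.9 CPM (13.9 to 50.0) in those with CD8 only. The larger cells had more chance to show any gene, and Ccr7 stood at 32.9 CPM (20.1 to 50.8) without the 33 cells above 3000 UMIs and at 96.4 CPM (57.1 to 152) in them.

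Genes of effector and tissue-resident T cells were low almost without exception. Of 17 tested, 16 were past 2-fold lower and 0 higher, with a median of -2.02. Cd44, an activation and memory marker, stood at 136 CPM (111 to 164) against 552 CPM (521 to 585), 4.06-fold (3.34 to 4.997) lower, and at 72.4 CPM (52.6 to 97.1) without the 33 cells above 3000 UMIs, a log2 ratio of -2.93. Against other T cells of 500 to 1500 UMIs, with the 33 kept, the log2 ratio was -0.56, which is below 2-fold. Itgae, the integrin that holds T cells in epithelia, had 6 UMIs (7.55 against 30.1 CPM), Cxcr6, a receptor of lung-resident T cells, 12 UMIs (15.1 against 111 CPM) and Ccl5 was at 218 against 948 CPM. The exception, Gzma, an enzyme of cytotoxic granules, was 1.96-fold lower.

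Migration receptors followed the same split. Of 16 tested, Ccr9 and Plxnd1, which guides double positive thymocytes towards the medulla, were past 2-fold higher and 9 lower, with a median of -1.19. Plxnd1 stood at 435 CPM (391 to 484), 7.90-fold (6.40 to 9.82) above other T cells. Cxcr4, a receptor of cortical thymocytes and many other cells, stood at 413 against 442 CPM, and Itgal, the LFA-1 integrin, at 633 against 609 CPM. Markers of other T and innate lymphocytes were low as well. All 7 tested gamma delta and innate-like T genes, of 11 listed, and 5 of 7 regulatory T genes were past 2-fold lower. So were 6 of 8 NK genes and 8 of 9 ILC2 genes, and 0 of any of these lists were higher. The constant genes of the gamma delta receptor were not among the 7, so gamma delta identity was not gauged by its receptor. Genes could enter on UMIs of other T cells alone, as did 2 of the 9 ILC2 genes. Such genes can only come out lower, so these counts lean that way. Summed over each whole list, levels were 85.6 against 387, 510 against 1344, 338 against 737 and 332 against 1494 CPM. Foxp3, the regulatory T cell factor, was found in 0.821% of cells at 10.1 CPM, against 56.0 CPM in other T cells.

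**Figure D5:**
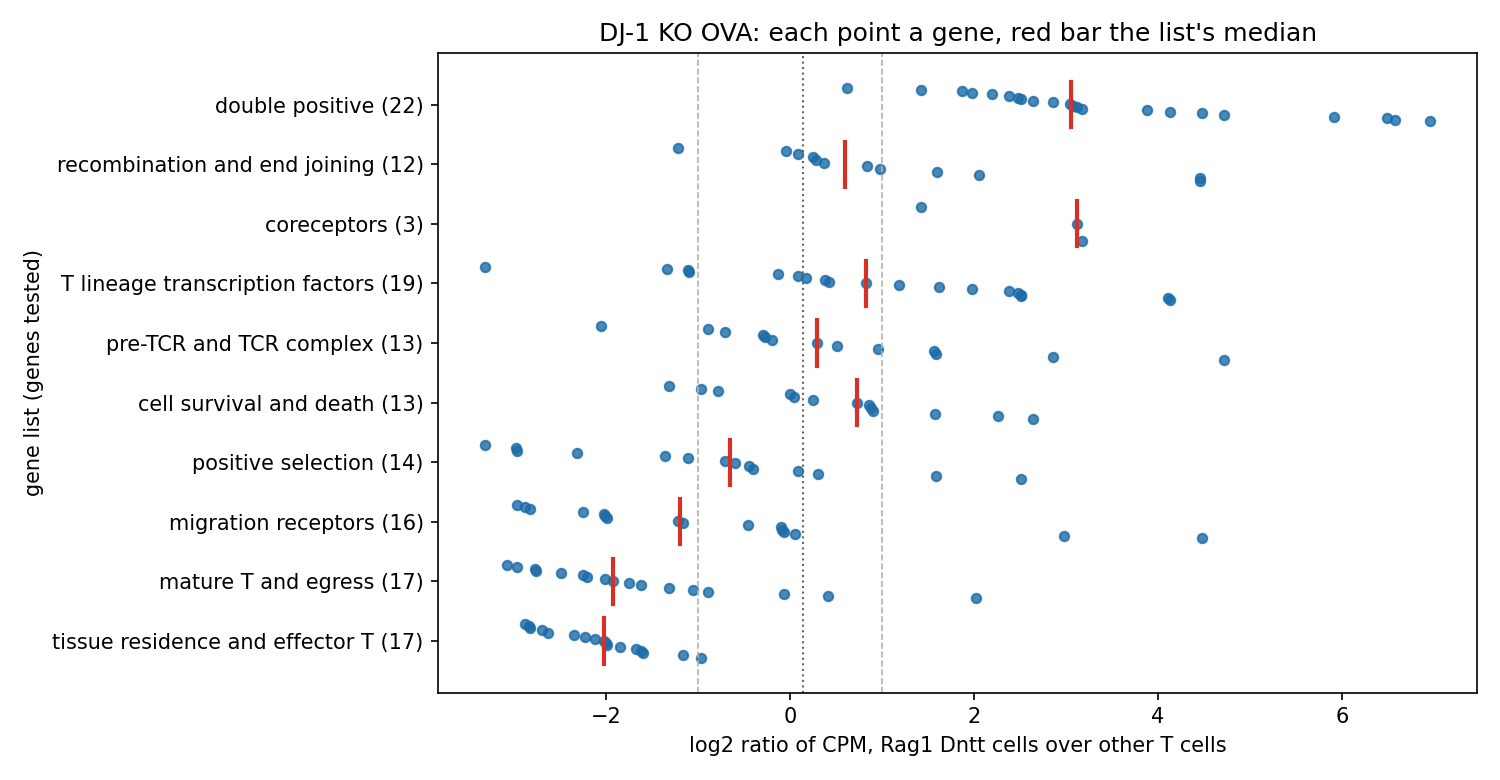
Log2 ratios of CPM of Rag1 Dntt cells over other T cells of DJ-1 KO OVA for the tested genes (blue points) of 10 lists, with each list's median as a red bar, dashed lines at 2-fold and a dotted line at the median of all genes (0.14). The double positive list lies to the right, at a median of 3.06, and the mature T and egress and tissue residence lists lie to the left, at -1.92 and -2.02.

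Among genes ranked by ratio with at least 100 UMIs, the 15 highest over other T cells held Endou, Ly6d, Arpp21, Aqp11 and Ccr9 from the lists. Others were Tdrd5, a germline RNA-binding gene, at 177 against 1.85 CPM (95.8-fold, 36.6 to 356), Chrna9, an acetylcholine receptor subunit, at 146 against 2.78 CPM (52.5-fold, 23.4 to 146), Sox4, a factor of precursors, at 1618 against 61.1 CPM (26.5-fold, 22.1 to 31.9), and Colq and Rapgef3, both at 182 CPM and 32.8-fold (18.2 to 65.0) and 39.4-fold (20.8 to 83.9) higher. Jchain ranked first by CPM, but 186 of its 187 UMIs lay in 1 cell. The 15 lowest included Il1rl1, the IL-33 receptor, with 2 UMIs against 215 CPM, the growth factor gene Areg at 12.6 against 232 CPM and Tnfrsf4, which encodes OX40, at 13.8 against 223 CPM. They also held airway genes such as Clca1, at 55.4 against 1110 CPM, and Chil4, at 123 against 2829 CPM, which are not T cell products.

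The reference T cells bear on the size of these ratios. They held a median of 1970 UMIs against 942, and in a comparison added after the values were seen only the 161 of them with 500 to 1500 UMIs were used. Arpp21 then stood at a log2 ratio of 3.39 and not 6.49, Satb1 at 0.98 and not 2.48, Cd44 at -0.56 and not -2.02, and 434 genes in place of 1475 were past 2-fold lower. The double positive list had a median of 1.97 with 19 of 22 genes higher, and the mature and egress list -2.29 with 13 of 16 lower. Each list kept its direction with the smaller T cells, while the size of single ratios did not carry over. Other references moved some ratios up. Against other T cells of WT OVA, Arpp21 stood at 11.42 and Endou at 11.04 in place of 6.96. Satb1 stood there at 2.63 and Cd44 at -1.65. Arpp21 had 1 UMI in those T cells. With T cells of both coreceptors left out, Arpp21 stood at 6.79, Endou at 8.64 and Satb1 at 2.48. Whether the DJ-1 KO OVA reference held thymocyte-like cells without a recombinase UMI was not tested.

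Cycling Rag1 Dntt cells gave a second point of comparison, which shares the resting cells with the first. Of 7708 genes, 16.3% were at least 2-fold higher in resting cells and 12.5% at least 2-fold lower, and the median was 0.16. By construction few resting cells divided, and 16 of 16 mitosis genes and 15 of 16 replication genes outside the selection were past 2-fold lower, with medians of -4.98 and -2.32. Nusap1, a spindle protein, stood at 7.55 against 539 CPM. Replication genes were still above other T cells, with 7 of 13 past 2-fold higher and 0 lower (median 1.04). Pcna, the replication clamp, stood at 328 CPM in resting cells, 156 in other T cells and 1414 in cycling cells, so the resting cells lay between the other kinds.

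Double positive genes were also higher in resting than in cycling cells, but by less. Of 22, 7 were past 2-fold higher and 1, Ptcra, lower, and the median was 0.84. Ccr9, Cd4 and Rmnd5a, the last at 2.57-fold (2.21 to 3.01), were among the higher, while Arpp21 was 1.88-fold (1.62 to 2.19) and Endou 1.64-fold (1.39 to 1.93) higher. Of 16 tested mature and egress genes, 10 were past 2-fold higher in resting cells and 0 lower (median 1.11). Ccr7 stood at 47.8 against 9.53 CPM (5.01-fold, 2.10 to 14.5) and Bcl2 at 78.0 against 33.4 CPM, so these genes were lowest in cycling, intermediate in resting and highest in other T cells. The genes that ranked highest over cycling cells after Jchain were the surfactant genes Sftpd, Sftpb and Sftpc and the neutrophil gene S100a9, which came from few cells, with 1646 of 2768 Sftpc UMIs in 1 cell.

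Survival and hormone response genes differed in part. Of 13 tested death and survival genes, 3 were past 2-fold above other T cells and 1 lower (median 0.73). Fas, the death receptor, stood at 153 against 31.9 CPM (4.805-fold, 3.55 to 6.55) and Bbc3, the PUMA gene, at 170 against 56.9 CPM (2.98-fold, 2.32 to 3.84). Double positive thymocytes are known to die under glucocorticoids. Of 8 genes of that response, Fkbp5 (2.70-fold, 2.14 to 3.40) and Tsc22d3 (2.14-fold, 1.93 to 2.37) were higher, Klf9 and Zbtb16 lower, and the receptor gene Nr3c1 stood at 213 against 203 CPM. Antioxidant genes, the class to which DJ-1 belongs, had 1 of 15 past 2-fold higher, Cat, and 1 lower, Hmox1, with a median of -0.060.

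The 25 cells of WT PBS carried the same groups of genes, as far as they could be measured. Genes had to be expected at 6 or more UMIs in both groups, which left 2460 genes, of which 9.31% were at least 2-fold above other T cells of WT PBS and 8.54% at least 2-fold below, with a median of 0.17. Of 10 double positive genes that passed, 9 were higher and 0 lower (median 1.93), and 12 of 17 mature and egress genes were lower (median -1.43). Cd8b1 was 4.73-fold (3.73 to 5.93) above other T cells and Cd4 3.80-fold (2.71 to 5.205). Among the genes compared, both lists ran as in DJ-1 KO OVA. Other T cells held 5549598 UMIs against 101609 in the 25 cells, so the limit favoured genes well detected in other T cells. It kept 10 of 22 double positive and 17 of 18 mature and egress genes, and left out Arpp21, Endou and Ccr9. Without the 2 Siglech cells, which was tried after the values were seen, 1986 genes were left, 10.2% higher and 11.1% lower, and the lists again had 9 of 10 higher and 12 of 17 lower.

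Set against each other, the Rag1 Dntt cells of DJ-1 KO OVA and WT PBS differed in part of their genes. Of 3428 genes, 16.4% were at least 2-fold higher in DJ-1 KO OVA and 5.28% at least 2-fold lower, with a median of 0.23. Double positive genes had 5 of 20 past 2-fold higher, among them Satb1 (2.14-fold, 1.89 to 2.44), Rmnd5a (2.40-fold, 1.73 to 3.41) and Bcl2l1 (2.79-fold, 1.61 to 5.31). Cd4, Ccr9, Arpp21 and Endou had intervals that include equal levels. Mature and egress genes had 4 of 14 lower, with Il7r at 51.6 against 315 CPM (6.11-fold, 3.72 to 9.94) and Ccr7 at 47.8 against 236 CPM (4.94-fold, 2.83 to 8.45). Other T cells of the same libraries differed in these genes as well, Il7r at 353 against 650.5 CPM and Ccr7 at 374 against 710.5 CPM, and 13.6% of their genes were at least 2-fold higher and 4.36% lower in DJ-1 KO OVA. The Siglech cells, 2 of the 25 and 4 of the 609, bear on these values. Without them 2 of 20 double positive genes were past 2-fold higher and 0 lower, among 2809 genes with 16.0% higher and 4.20% lower. Satb1 was then 1.78-fold (1.56 to 2.03), Rmnd5a 1.99-fold (1.43 to 2.86) and Bcl2l1 2.48-fold (1.40 to 4.86) higher, and the interval of Ly6d included equal levels, at 597 against 646 CPM. Il7r and Ccr7 were still lower, by 7.20-fold (4.37 to 11.8) and 5.52-fold (3.11 to 9.57). With all cells kept, Ccr7 was found in 4 of the 25 cells and 22 of the 609. Its level in WT PBS thus rests on few cells, whose spread the intervals do not cover. Alveolar type 2 genes had 6 of 7 past 2-fold higher in DJ-1 KO OVA and 1 lower, with all cells kept (median 3.65). Erythroid genes had 4 of 4 higher (median 5.10). By share of cells both lists ran the other way. Their UMIs were found in 294 and 41 of the 609 cells, against 16 and 10 of the 25. In DJ-1 KO OVA only 4 and 2 cells held 10 or more UMIs of these lists. The WT PBS cells were deeper, at a median of 2850 against 942 UMIs. The part of such RNA in the comparison was not tested. Genotype, challenge and library cannot be told apart in this comparison.

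RNA of lung and thymic tissue around the cells was looked for. Scgb1a1, the club cell secretory protein that floods lung suspensions, was found in 86.2% of Rag1 Dntt cells of DJ-1 KO OVA and in 88.5% of B cells, and Sftpc, of alveolar type 2 cells, in 32.5% and 28.8%. The median depths were 942 and 1124.5 UMIs. Haemoglobin genes summed to 4557 CPM (4410 to 4708), but Hbb-bs was found in 15 cells, one of which held 689 of 1097 UMIs. Over all 4441 kept cells of DJ-1 KO OVA, Foxn1, the master factor of thymic epithelium, and Psmb11, the cortical proteasome subunit, had 0 UMIs, which allows up to 0.0676% of cells with a UMI, a limit on cells with a UMI and not on cells that express the gene.

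Other genes of the thymic epithelial lists were found in all libraries, and lung cells carry some of them. Prss16, a protease of the cortex, had 13 UMIs in 12 cells, against 22 UMIs in the WT PBS library and 15 in WT OVA, and Aire, the medullary factor of self-antigen display, 6 UMIs in 3 cells against 3 and 12. Ccl25, the ligand of CCR9, was found in 84 cells of DJ-1 KO OVA (1.89%), 176 of WT PBS (4.504%) and 114 of WT OVA (1.87%). Krt5, a basal keratin, was more frequent in DJ-1 KO OVA, with 153 UMIs in 11 cells against 18 UMIs in 1 cell of WT PBS and 23 in 4 of WT OVA. The protease gene Ctsl was found in 23.7%, 21.7% and 20.5% of cells of DJ-1 KO OVA, WT PBS and WT OVA. In the Rag1 Dntt cells themselves 5 of 10 cortical and 6 of 10 medullary genes were at 0, and the lists summed to 270.5 CPM (236 to 309) and 65.4 CPM (48.9 to 85.8), against 160 (143 to 178) and 54.2 CPM (44.8 to 64.9) in other T cells. The Y-linked genes Ddx3y, Eif2s3y, Kdm5d and Uty were at 0 UMIs in the Rag1 Dntt cells of all libraries and Xist was found in 411 of 609, which matches the labelled sex. Whether the cells lay in the lung, in its vessels or in thymic tissue was not tested.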

How the data were processed

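Single-cell 3′ RNA-seq of whole lung was deposited as 1 filtered matrix of UMI counts per gene and cell barcode for each of the 3 libraries, made by the authors with Cell Ranger and STAR on mm10, per the submitters' processing notes. The file headers give software version 3.1.0. The deposited counts cover 27998 genes and were not normalized, and no barcode holds fewer than 500 UMIs.

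A cell was kept when it showed 200 or more genes and no more than 20% of its UMIs were mitochondrial, and of a barcode found in both WT PBS and DJ-1 KO OVA the cell with fewer UMIs was removed. Rag1 Dntt cells, other T cells and B cells were chosen by the UMI limits given with the results. UMIs were summed per group and library. A gene was compared when it had at least 20 UMIs over both groups, and in comparisons with the WT PBS cells when at least 6 were expected in each, a limit added after the values were seen. It was counted as higher or lower from 2-fold. With 1 library per group no test was made. List medians are over the log2 ratios of the compared genes. Shares at equal depth are exact expectations for drawing 500 or 1000 UMIs from each cell.

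Named genes are members of the gene lists (327 of 334 symbols found), Park7, and the 15 highest and 15 lowest ratios over other T cells and 5 and 5 over cycling cells among genes with at least 100 UMIs. Siglech, Irf8 and the split at 1500 UMIs were chosen after values were seen. The members and lists were chosen with earlier results of these data known. Doublets were not removed. Scrublet, run through scanpy 1.11.5, marked 48 cells of WT PBS and 3 each of the libraries given ovalbumin, none a Rag1 Dntt cell, and in the latter so few that it cannot be taken to have worked. Calculations used SciPy 1.17.1 and NumPy 2.4.6 under Python 3.11.15, tables pandas 2.3.3 and plots matplotlib 3.10.9, and the intervals and ratios were tested on simulated data. The constant genes of the T cell receptor chains were not analysed here.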

Additional observations from a re-analysis of the deposited data

How the results depend on the processing

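Of 90 values of the 6 main results under 19 settings, 77 stayed close to the main value and 13 moved. Close meant counts within 1.5 times, shares within their counting interval and list medians within the median counting bounds of their genes. Only the list medians could change sign, and neither did. Removal of Scrublet doublets took out no Rag1 Dntt cell and no other T cell of DJ-1 KO OVA, so it could hardly move a value. The share of Rag1 Dntt cells in DJ-1 KO OVA was 17.2% with a minimum of 1 recombination UMI, 7.86% with a minimum of 4 and 12.7% with 0 proliferation UMIs. The share with both coreceptors was 36.1% with the minimum of 4 and 14.9% at 500 UMIs per cell. Genes at least 2-fold lower than in other T cells, 1475 in the main comparison, numbered 890 with the minimum of 1, 572 with 100 UMIs per gene (fewer genes tested) and 434 against other T cells of 500 to 1500 UMIs. Genes at least 2-fold higher, 1377 in the main comparison, numbered 646 with 100 UMIs per gene and 2304 with 1 UMI in each group as the minimum (more genes tested). The double positive median was 2.67 with the minimum of 1 and 1.97 against T cells of 500 to 1500 UMIs, and the mature and egress median was -3.19 from means of per-cell CPM. Apart from the changes in genes tested, the cause was not tested. Without the 33 cells above 3000 UMIs the counts were 1628 higher and 1884 lower, and the medians 3.27 and -2.29. Of 204 values of 12 named genes, 51 moved. Cd69 alone changed sign, from a log2 ratio of -0.44 to 0.20 against other T cells of WT OVA. The settings with 500 UMIs, T cells of 500 to 1500 UMIs, no cells above 3000 UMIs and no Siglech cells were chosen after seeing the data. No paired analysis was possible because each group is 1 library. At a median of 942 UMIs, a missing coreceptor UMI does not show a missing coreceptor, and differences between libraries have no replicate.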
